A study of Mus musculus with 24 samples.

Results

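A set of 10 peptide-processing and granule genes was followed in bulk mRNA sequencing of MIN6 cells, a mouse insulinoma line used as a model of pancreatic β cells. They were chosen by symbol (Pcsk1, Pcsk2, Cpe, Scg5, Pam, Chga, Chgb, Scg2, Vgf and Ptprn), and all 10 were found among the 17696 genes listed. The study compared 3 stable lines. Scr cells carried a lentiviral scrambled sequence, ZIP cells carried an anti-sense vector that inhibits miR-146a-5p, and OE cells carried a vector that overexpresses miR-146a-5p. Each line was left untreated or was treated for 24 h with IFNγ (100 ng/mL), TNFα (10 ng/mL) and IL-1β (5 ng/mL) (Scr+Cy, ZIP+Cy and OE+Cy), which gave 6 groups of 4 libraries. Per the study's methods the lines were expanded from picked single clones under puromycin. Scr and ZIP share the miRZip backbone with copGFP, and OE has the shMIMIC backbone with TurboRFP. A difference between lines therefore cannot be told apart from a difference between clones, nor, for OE, from one between vectors. Nothing in the labels says that the 4 libraries of a group came from separate cultures, so the p-values measure the spread between these libraries.

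The libraries held between 26657792 and 37168232 reads assigned to genes (median 30701023), and the lowest level of any of the 10 genes in any library was 221 reads per 1000000 assigned reads (Scg5 in Scr replicate 3). Levels are given in this unit, CPM, after scaling of the libraries by edgeR's TMM method. The mature miRNA is not measured by mRNA sequencing, so the line labels were not checked by their target. In untreated cells the paper's quantitative PCR found the miRNA raised in OE but unchanged in ZIP, each against Scr. With cytokines the paper reported a much smaller rise of the miRNA in ZIP and in OE than in Scr, each against its own untreated cells. The cytokine labels were checked by Irf1, an interferon-induced transcription factor, which averaged 412 CPM in Scr+Cy against 28.3 CPM in Scr, 401 against 29.8 CPM in the ZIP pair of groups, and 729.5 against 20.6 CPM in the OE pair. All 10 β cell markers examined were above 1 CPM in each group, but their levels differed between the lines. In untreated OE the libraries lay above every Scr library for 5 of them (Ins1, Ins2, Iapp, Slc2a2 and Slc30a8) and below every Scr library for the other 5 (Pdx1, Nkx6-1, Nkx2-2, Mafa and G6pc2). The share of all genes without overlap between these groups was not counted, so this separation is not shown to be particular to the markers. Summed α cell markers were also lower, between 602 and 1156 CPM in OE against 1528 to 1981 CPM in Scr. Summed duct and acinar markers were between 91.8 and 133 CPM in untreated OE libraries, mostly Spp1 (osteopontin), against at most 2.45 CPM in untreated Scr and ZIP libraries. Summed δ cell markers (13.4 to 18.6 CPM in OE, at most 5.02 CPM in Scr and ZIP) and PP cell markers (6.18 to 11.4 CPM in OE, at most 0.0366 CPM in Scr and ZIP) were also higher in OE, at low levels, and immune markers summed to at most 4.41 CPM and fibroblast and endothelial markers to at most 13.6 CPM in untreated cells. The part of these genes in the OE results was not tested.

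Peptide hormones are made as larger precursors that are cut and trimmed inside dense-core secretory granules. Prohormone convertases 1 and 2 (Pcsk1 and Pcsk2) cut at paired basic residues, carboxypeptidase E (Cpe) removes the basic residues left behind, and peptidylglycine alpha-amidating monooxygenase (Pam) amidates the ends of some peptides. Secretogranin 5, or 7B2 (Scg5), is the chaperone that Pcsk2 needs to become active. The granins chromogranin A (Chga), chromogranin B (Chgb) and secretogranin 2 (Scg2), together with the neurosecretory protein Vgf, are granule cargo that aggregates with hormone and is itself cut into peptides. Ptprn (IA-2) is a granule membrane protein and a known autoantigen of type 1 diabetes. In β cells the hormone that these proteins process is insulin, while Pcsk2 is best known in α cells for making glucagon.

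The perturbed miRNA and the regulatory sequence upstream of these genes are shown first, because the comparisons below set the miRNA against the genes. Mature miR-146a-5p (RefSeq, GRCm38.p6, chr11:43374435-43374456, minus strand) is printed with its seed, bases 2 to 8, in capitals.
miR-146a-5p: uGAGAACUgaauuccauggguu
The 7-base match to this seed, AGTTCTC, was present in the annotated 3′ UTR of 0 of the 10 genes, against 11.6% of 15206 listed genes with an annotated 3′ UTR. Chga held 1 match to the shorter seed followed by A (GTTCTCA), which 12.9% of those genes also held. The UTRs searched ran from 250 bases in Chgb to 2542 bases in Pcsk1, so short UTRs gave little sequence in which to match.

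Granin and convertase promoters are known as targets of cAMP-responsive factors, so the cAMP response element (CRE) was searched for on both strands of RefSeq promoters, from 250 bases before to 50 bases after each start. Promoters of 8 of the 10 genes were in the table used (Cpe and Vgf were not). The full palindrome TGACGTCA stood in Scg2 at −68, in Chgb at −72 and in Pcsk1 at −78, counted from the start of transcription, against 1.79% of 32851 promoters. Its 5-base core TGACG or the reverse CGTCA, which the palindrome contains, stood in 7 of the 8 (all but Pam), against 20.8% of promoters. The last 120 bases before the start are printed for the 3 genes with the palindrome and for Chga and Pcsk2, which hold only the core there. Capitals mark the palindrome or, for Chga and Pcsk2, the core.
Scg2 (GRCm38.p6, chr1:79440027-79440146, minus strand): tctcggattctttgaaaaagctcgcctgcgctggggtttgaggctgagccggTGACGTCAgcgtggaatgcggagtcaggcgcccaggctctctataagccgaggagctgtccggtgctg
Chgb (chr2:132781522-132781641, plus strand): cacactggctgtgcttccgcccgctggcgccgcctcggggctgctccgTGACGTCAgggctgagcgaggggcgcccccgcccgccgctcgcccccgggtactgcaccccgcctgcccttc
Pcsk1 (chr13:75089737-75089856, plus strand): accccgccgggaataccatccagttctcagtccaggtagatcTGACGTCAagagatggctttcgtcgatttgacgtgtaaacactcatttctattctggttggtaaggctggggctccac
Chga (chr12:102554821-102554940, plus strand, core at −44): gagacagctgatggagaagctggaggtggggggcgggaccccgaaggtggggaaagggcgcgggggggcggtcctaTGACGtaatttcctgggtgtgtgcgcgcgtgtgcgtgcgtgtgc
Pcsk2 (chr2:143546013-143546132, plus strand, core at −34): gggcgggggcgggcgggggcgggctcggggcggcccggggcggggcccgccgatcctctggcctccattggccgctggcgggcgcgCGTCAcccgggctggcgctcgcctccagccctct
The 3 genes that share the full palindrome did not share a pattern across the groups, as the values below show. A match is a description of the letters and not of a bound factor.

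The 10 genes lie on 6 chromosomes of the mm10 build. Chromosomes 1 and 2 hold 3 of them each. By the deposited annotation, Pcsk1 spans chr13:75089857-75134859 (plus strand), Pcsk2 chr2:143546133-143816282 (plus), Cpe chr8:64592551-64693109 (minus), Scg5 chr2:113776313-113829091 (minus) and Pam chr1:97821094-98095646 (minus). Chga spans chr12:102554941-102565027 (plus), Chgb chr2:132781642-132795078 (plus), Scg2 chr1:79434368-79440026 (minus), Vgf chr5:137030295-137033351 (plus) and Ptprn chr1:75247041-75264208 (minus). A pair of antisense transcripts lies across Pcsk2, Pcsk2os1 at 8.94 CPM and Pcsk2os2 at 0.946 CPM, and B230216N24Rik at 0.509 CPM lies inside Pam on its strand. Whether reads were counted by strand is not given in the sources used here, so reads of these genes cannot be fully told apart. Pcsk2 averaged 1430 CPM and Pam 538 CPM over the 24 libraries.

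In this cell line the granins dominated the set. Per kilobase of transcript, averaged over the 24 libraries, Chga stood highest at 4327 CPM per kb, followed by Scg2 at 2424, Chgb at 1841 and Cpe at 1166 CPM per kb. Ptprn (338), Pcsk2 (303), Pcsk1 (254), Scg5 (244), Vgf (180) and Pam (131 CPM per kb) followed well below. Together the 10 genes took 2.87% ± 0.186 (SD, n = 4) of assigned reads in Scr, 2.88% ± 0.167 in ZIP and 2.79% ± 0.0778 in OE. The share was 2.75% ± 0.148 in Scr+Cy and 2.79% ± 0.276 in ZIP+Cy, but 2.05% ± 0.308 in OE+Cy, where the highest library (2.46%) lay below the lowest library of every other group except ZIP+Cy (2.41%).

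**Figure D1:**
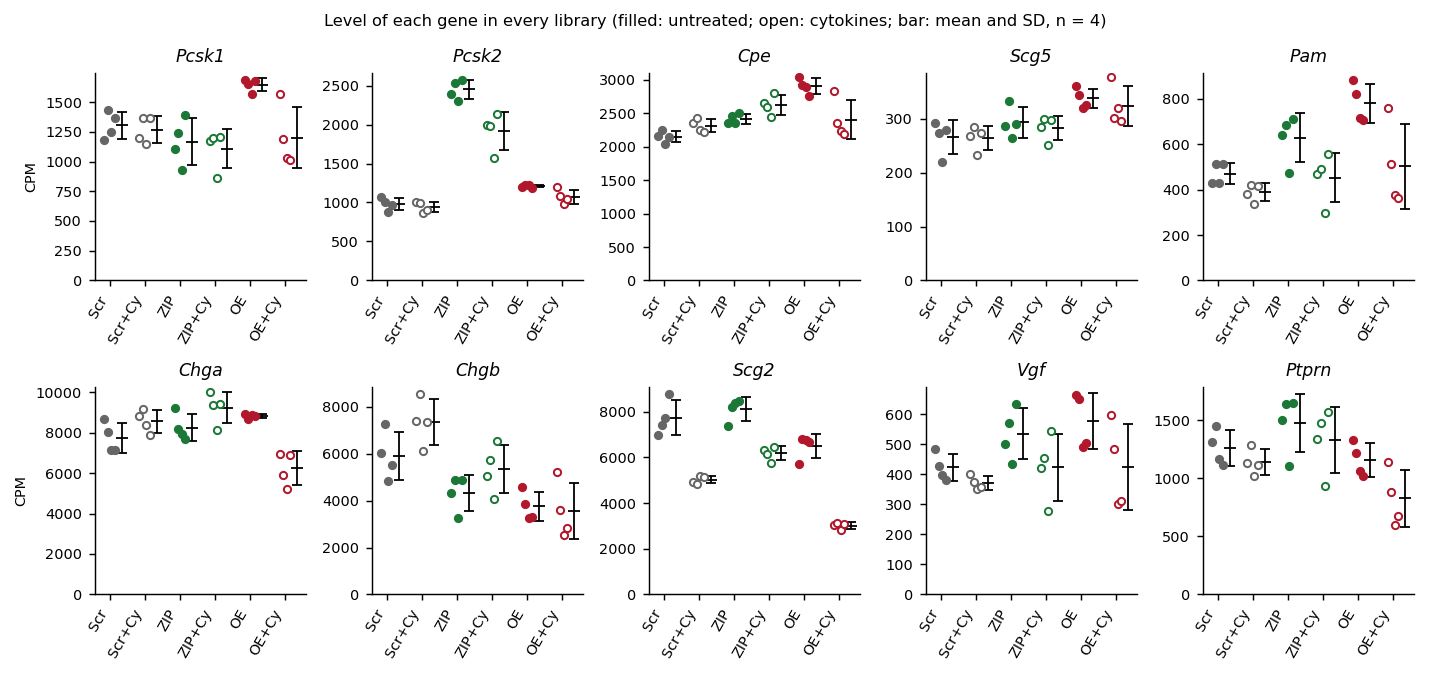
Level of each of the 10 genes in CPM on a linear axis from 0, 1 point per library, in the 6 groups (grey Scr, green ZIP, red OE; filled untreated, open cytokine-treated), with the mean and SD of 4 libraries beside the points. Pcsk2 stands apart in both ZIP groups, between 1574 and 2566 CPM, and Scg2 falls lowest in OE+Cy, between 2805 and 3109 CPM.

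The untreated lines were each compared with Scr, to see what differs in the line with the inhibiting vector and in the line with the overexpressing one. For ZIP this is a comparison without a measured change in the level of the miRNA. A gene was called when it differed by at least 1.5-fold with an unadjusted p under 0.05, the thresholds of the study, in edgeR's quasi-likelihood test over all listed genes. Benjamini-Hochberg adjusted p-values over all genes are printed beside the fold changes, and "rose" or "fell" is used where a gene was called or its adjusted p was under 0.05. Fold changes are log2 values with their standard error (SE).

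Pcsk2, the convertase best known from α cells, was the gene that set ZIP apart. The 4 ZIP libraries held 2397, 2535, 2304 and 2566 CPM, against 1069, 1008, 879 and 966 CPM in Scr and 1205, 1225, 1228 and 1188 CPM in OE. Every ZIP library stood far above every library of the other lines, and every OE library stood modestly above every Scr library. Pcsk2 rose in ZIP by 1.32 on the log2 scale (SE 0.08, adjusted p = 5.44e-12) and in OE by 0.31 (SE 0.08, 1.24-fold, adjusted p = 0.00228), the latter below the 1.5-fold limit. In bulk libraries fewer cells of a type and less RNA per cell cannot be told apart.

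Neither the partner convertase nor the chaperone followed Pcsk2 in ZIP. Pcsk1 was at 1177, 1431, 1249.7 and 1367 CPM in Scr and at 1108, 1237, 928 and 1395 CPM in ZIP, and these ranges overlap (log2 difference −0.16, 95% interval −0.41 to 0.09, adjusted p = 0.381). Scg5 was at 266 ± 31.4 CPM (SD, n = 4) in Scr and 294 ± 28.9 CPM in ZIP (log2 difference 0.14, 95% interval −0.04 to 0.32, adjusted p = 0.27). The balance of the convertases, in Pcsk2 reads per Pcsk1 read, was 0.756 ± 0.102 in Scr and 2.13 ± 0.269 in ZIP. In OE, where both convertases were higher, it was 0.737 ± 0.0348. Reads of Pcsk2 per read of its chaperone Scg5 were 3.70 ± 0.214 in Scr, 8.38 ± 0.552 in ZIP and 3.59 ± 0.202 in OE.

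The α cell markers analysed were Gcg, Irx1, Irx2 and Ttr. Their summed level moved with Pcsk2 in ZIP, from 1528 to 1981 CPM in Scr to 3809 to 4760 CPM in ZIP, through Ttr (transthyretin, 1497 CPM in Scr and 4061 CPM in ZIP). Glucagon itself did not share this direction, with Gcg at 288 ± 55.5 CPM in Scr and 184.5 ± 87.9 CPM in ZIP. Irx1 and Irx2, transcription factors of α cells, averaged at most 0.320 CPM in both lines. The part of these genes in the Pcsk2 result was not tested. The 39 genes within 5 Mb of Pcsk2 that passed a low-count filter (edgeR's filterByExpr) had a median log2 difference of 0.10 between ZIP and Scr.

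**Figure D2:**
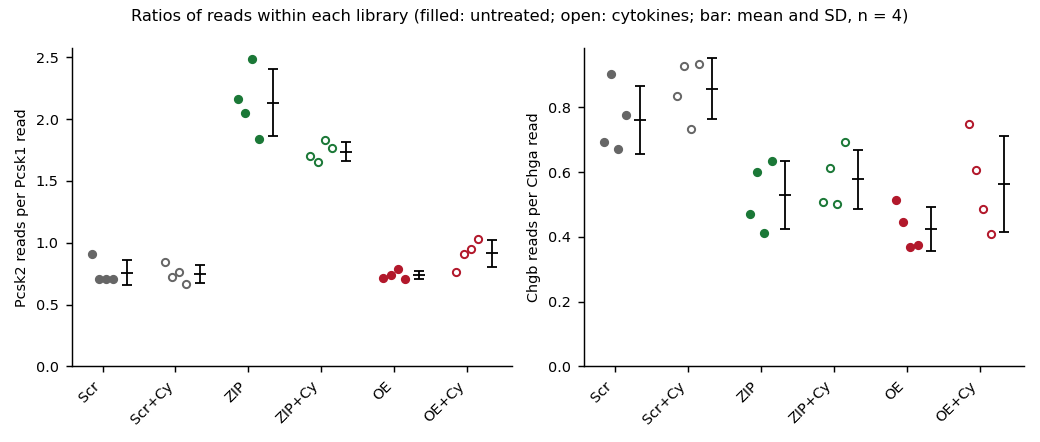
Reads of Pcsk2 per read of Pcsk1 (left) and of Chgb per read of Chga (right) in each library, on linear axes from 0, with the mean and SD of 4 libraries per group (filled untreated, open cytokine-treated). The Pcsk2 to Pcsk1 ratio lies between 1.65 and 2.48 in the 8 ZIP and ZIP+Cy libraries and between 0.664 and 1.03 in the other 16. The group mean of the Chgb to Chga ratio is highest in Scr and Scr+Cy. Single libraries overlap, with OE+Cy replicate 1 (0.749) above Scr replicate 3 (0.673).

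Pcsk2 was the 1 gene of the 10 called in ZIP, against 14.9% of all listed genes, and the 1 of 10 with an adjusted p under 0.05, against 28.3% of all genes. Cpe was next, at 2167, 2245, 2047 and 2139 CPM in Scr and 2356, 2460, 2356 and 2501 CPM in ZIP. These groups do not overlap, yet the log2 difference of 0.17 (SE 0.06) had an adjusted p of 0.0525. The count at an adjusted p under 0.05 depends on the fit. With only the Scr and ZIP libraries fitted it was 5 of 10, against 25.8% of all genes in that fit, the added genes being Cpe (0.17, adjusted p = 0.0225), Pam (0.42, adjusted p = 0.0187), Chgb (−0.44, adjusted p = 0.0334) and Vgf (0.34, adjusted p = 0.0363), none past 1.5-fold.

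In OE genes of the set moved in both directions. Of the 10 genes, 7 had an adjusted p under 0.05 against 50.1% of all genes, 5 higher and 2 lower, and 2 of the 10 were called against 25.7% of all genes. The 5 that rose were Cpe, Pam, Pcsk1, Pcsk2 and Scg5, the 4 enzymes of the set and the chaperone, and of these 5 only Pcsk1 lost an adjusted p under 0.05 when 1 library was left out. The granins Chgb and Scg2 fell. With only the Scr and OE libraries fitted, 9 of 10 had an adjusted p under 0.05 against 49.4% of all genes, with Chga (0.19, adjusted p = 0.0225) and Vgf (0.45, adjusted p = 0.00314) added. The median log2 difference of the 10 genes was 0.32 in OE and 0.16 in ZIP, against 0 over all genes in each comparison. Both comparisons share the 4 Scr libraries.

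Cpe, the carboxypeptidase, was at 3048, 2923, 2885 and 2763 CPM in OE. Each of these libraries exceeded each Scr and ZIP library (log2 difference from Scr 0.43, SE 0.06, 1.35-fold, adjusted p = 4.66e-06). Pcsk1 was at 1688, 1651, 1564 and 1676 CPM in OE, above every untreated Scr and ZIP library (0.33, SE 0.13, adjusted p = 0.0345 against Scr). Leaving out any 1 of OE replicates 1, 2 or 4 or Scr replicates 1 or 3 took its adjusted p past 0.05, to between 0.0529 and 0.0996, with log2 differences of 0.29 to 0.34. Within 5 Mb of Pcsk1, 81.6% of 38 genes that passed the low-count filter were also higher in OE. Their median was 0.31 on the log2 scale, within 1 SE of the Pcsk1 difference, against 0 over all listed genes. Around Scg5, Cpe, Scg2 and Ptprn the neighbours' median was opposite in sign to the gene (−0.16, −0.07, 0.18 and 0.09). Around Pam, Chga, Vgf and Pcsk2 it had the gene's sign (0.15, 0.14, 0.05 and 0.003). The part of neighbouring genes in the OE differences was not tested. Scg5 was at 360.2, 345, 320.5 and 326 CPM in OE against 292, 275, 221 and 279 CPM in Scr, again with no overlap (0.34, SE 0.09, adjusted p = 0.00277).

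Pam, the amidating enzyme, showed the widest rise of the set in OE. OE libraries held 884, 819.6, 716 and 706 CPM, Scr libraries 431, 511, 429.96 and 513 CPM, and ZIP libraries 643, 686, 474 and 713 CPM. All 4 OE libraries exceeded all 4 Scr libraries, while ZIP overlapped both. Pam rose in OE by 0.73 (SE 0.19, 1.66-fold, adjusted p = 0.00246) and in ZIP differed by 0.42 (SE 0.19, adjusted p = 0.106).

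Chgb was the member that fell furthest in the untreated lines. Scr libraries held 6011, 7278, 4816 and 5534 CPM, OE libraries 4565, 3868, 3273 and 3305 CPM, and ZIP libraries 4330.3, 4892, 3263 and 4879.5 CPM. The OE libraries all lay below the Scr libraries, and the ZIP libraries overlapped Scr at the margin. The fall in OE was −0.66 (SE 0.19, 0.635-fold, adjusted p = 0.00535), and the difference in ZIP was −0.44 (SE 0.19, adjusted p = 0.0807). Without Scr replicate 2, the highest Scr library, the OE value was −0.54 (adjusted p = 0.0275) and was no longer called. Among 77 genes within 5 Mb of Chgb that passed the low-count filter, 19.5% were higher in OE, with a median of −0.22.

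Its sister granin did not follow, so that Chgb reads per Chga read went from 0.762 ± 0.105 in Scr to 0.529 ± 0.105 in ZIP and 0.425 ± 0.0683 in OE. Chga was at 8655, 8045, 7158 and 7122 CPM in Scr and at 8907, 8655, 8893 and 8843 CPM in OE, overlapping ranges with a log2 difference of 0.19 (SE 0.08, adjusted p = 0.0683). Scg2 in OE was at 5719, 6814, 6743 and 6691 CPM, while Scr libraries held 7003, 7444, 7750.3 and 8780.4 CPM and ZIP libraries 7369, 8215, 8391 and 8491 CPM. In OE it fell by 0.25 (SE 0.07, 0.838-fold, adjusted p = 0.00285), with no OE library reaching the lowest Scr library.

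In the fit of 24 libraries Vgf and Ptprn did not pass the adjusted threshold in either untreated comparison, and Vgf depended on the fit. Vgf, a precursor of several secreted peptides, was at 484, 427, 398 and 382 CPM in Scr and 663, 651, 491 and 503 CPM in OE. These do not overlap, but replicates 3 and 4 of OE lay close to Scr (0.45, SE 0.19, adjusted p = 0.0519). It passed with DESeq2's size factors (adjusted p = 0.0459) and with a filter on low counts (0.0444), but not with DESeq2's own test (0.0505). Ptprn averaged 1477 ± 253 CPM in ZIP and 1159 ± 144 CPM in OE, against 1264 ± 153 CPM in Scr, with log2 differences of 0.22 (95% interval −0.11 to 0.56) in ZIP and −0.13 (−0.46 to 0.21) in OE.

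**Figure D3:**
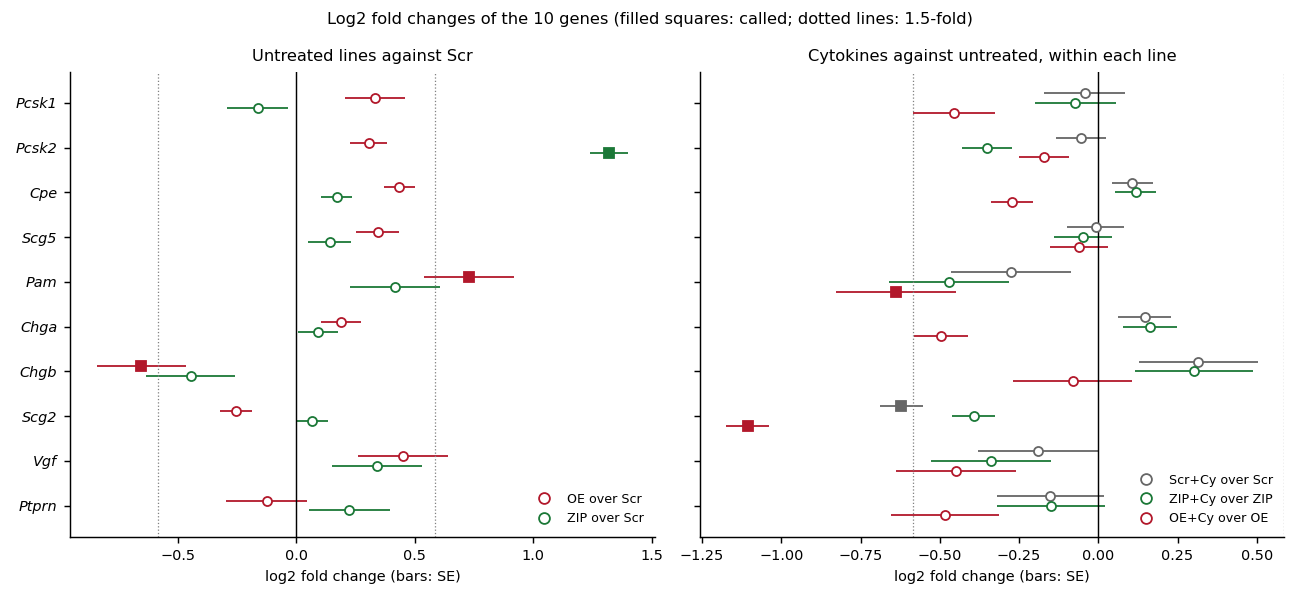
Log2 fold change with SE of each gene in the untreated lines against Scr (left) and under cytokines against the untreated cells of the same line (right), with filled squares for called genes and dotted lines at 1.5-fold. Pcsk2 in ZIP (1.32) is the largest rise, and Scg2 in OE+Cy (−1.11) is the largest fall.

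The next question was what the cytokines did in each line. The clearest answer was Scg2, whose peptide secretoneurin is a known neuropeptide. Its untreated levels are given above. With cytokines the Scr+Cy libraries held 4940.4, 4839, 5208 and 5148 CPM, the ZIP+Cy libraries 6339, 6141, 5771 and 6462 CPM, and the OE+Cy libraries 3054, 3109, 2805 and 3096 CPM. In each line no treated library reached an untreated one, so that Scg2 fell in all 3. The log2 difference was −0.62 in Scr (SE 0.07, 0.650-fold, adjusted p = 1.52e-07), −0.39 in ZIP (SE 0.07, 0.761-fold, adjusted p = 9.01e-05) and −1.11 in OE (SE 0.07, 0.465-fold, adjusted p = 2.6e-12). The fall in Scr lay close to the 1.5-fold limit: without Scr replicate 4 it was −0.56 (adjusted p = 9.48e-07) and not called.

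The fall of Scg2 was deeper in OE than in Scr. The difference of the 2 responses, tested as an interaction, was −0.48 (SE 0.10, adjusted p = 8.25e-04). That between ZIP and Scr was 0.23 (SE 0.10, unadjusted p = 0.0253, adjusted p = 0.702) and did not pass. With cytokines the lines were thus ordered ZIP+Cy, Scr+Cy and OE+Cy, with no overlap between neighbours.

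In Scr the set otherwise moved little by this test. Scg2 was the 1 gene of 10 called, against 10.6% of all genes, and the 1 of 10 at an adjusted p under 0.05, against 17.8%. In ZIP 0 of 10 were called, against 12.5% of all genes, and 2 of 10 had an adjusted p under 0.05, against 26.4%: Scg2 and Pcsk2. The 0 called genes in ZIP held with DESeq2 as with edgeR, and 3 of the 10 had an unadjusted p under 0.05, Pam being the other (−0.47, adjusted p = 0.0693). Pcsk2 was at 1993, 1981, 1574 and 2129 CPM in ZIP+Cy, each below every untreated ZIP library, and fell by 0.35 (SE 0.08, adjusted p = 0.0015). It remained above every Scr+Cy library, which held 1004, 992, 871 and 906 CPM (1.02 against Scr+Cy, SE 0.08, adjusted p = 4.06e-10).

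Libraries with the same replicate number deviated from their group means together within each line. When that number was made a block in a fit of the 2 groups compared, a choice made after the data were seen, most of the set passed the test. In Scr 7 of 10 genes then had an adjusted p under 0.05 against 31.1% of all genes, in ZIP 8 of 10 against 36.7%, and in OE 8 of 10 against 48.5%. The genes that rose were Chgb, Chga and Cpe in Scr and Chgb, Chga and Cpe in ZIP. Chgb rose by 0.33 in Scr (adjusted p = 8.31e-07) and 0.31 in ZIP (adjusted p = 2.47e-05), Chga by 0.16 (adjusted p = 0.00132) and 0.17 (adjusted p = 0.00209), and Cpe by 0.12 (adjusted p = 0.0078) and 0.12 (adjusted p = 0.00861). Each was higher in 4 of 4 pairs in each of these lines.

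Pam, Vgf, Ptprn and Scg2 fell in both lines in this blocked fit, in 4 of 4 pairs each. The log2 differences of Pam were −0.27 in Scr (adjusted p = 2.67e-05) and −0.48 in ZIP (adjusted p = 1.23e-05). Those of Vgf were −0.17 (adjusted p = 0.00135) and −0.36 (adjusted p = 7.56e-04), and those of Ptprn −0.14 (adjusted p = 0.0115) and −0.15 (adjusted p = 0.00709). Apart from Scg2 in Scr, none of these reached 1.5-fold. With the same block in a fit of all 24 libraries the counts were 1 of 10 in Scr against 22.6% of all genes, 3 of 10 in ZIP against 31.7% (Pam added, −0.48, adjusted p = 0.0173) and 8 of 10 in OE against 48.4%. The genes that the block added in OE, in the fit of the 2 groups, were Pcsk2 (−0.18, adjusted p = 0.0248) and Vgf (−0.495, adjusted p = 1.66e-04), both lower in 4 of 4 pairs.

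In OE the genes that passed after cytokines were all lower. Without the block 6 of 10 genes had an adjusted p under 0.05, against 44.6% of all genes, and 2 of 10 (Scg2 and Pam) were called against 21% of all genes. The median of the 10 genes was −0.45 in OE, −0.11 in ZIP and −0.05 in Scr, against 0.024, −0.0066 and 0.0023 over all genes. The 6 that fell were Scg2, Chga, Cpe, Pcsk1, Pam and Ptprn: 3 of the 4 enzymes, the granins Chga and Scg2, and Ptprn. Pcsk2, the remaining enzyme, overlapped between treated and untreated libraries (−0.17, adjusted p = 0.0798). The β cell factors Pdx1 and Mafa moved the same way, from 627 to 337 CPM and from 716 to 358 CPM, and their part in these falls was not tested.

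In OE+Cy Chga was at 6970.2, 5930.4, 5229 and 6904 CPM. The Scr+Cy libraries held 8839, 9175, 8373 and 7882 CPM of it and the ZIP+Cy libraries 10002.5, 9355, 8151 and 9429 CPM. All 4 OE+Cy libraries were below every library of the other 5 groups. The fall from OE was −0.50 (SE 0.08, 0.709-fold, adjusted p = 3.59e-05), while in Scr the difference was 0.15 (SE 0.08, adjusted p = 0.268). The responses differed by −0.64 (SE 0.12, adjusted p = 5.11e-04).

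Cpe in OE+Cy was at 2835, 2357, 2237 and 2188 CPM. In Scr+Cy it was at 2356, 2434, 2256 and 2215 CPM, and ZIP+Cy libraries held 2659, 2599, 2442 and 2795 CPM. OE+Cy replicate 1 stayed within the untreated OE range and the other 3 lay below it (−0.27, SE 0.06, adjusted p = 0.00126). The responses of OE and Scr differed by −0.38 (SE 0.09, adjusted p = 0.00456). These 3 genes, Chga, Scg2 and Cpe, were 3 of 10 with such a difference between OE and Scr, against 20% of all genes. For the other 7 the difference in response did not pass (adjusted p from 0.117 for Pcsk1 to 0.841 for Scg5). Between ZIP and Scr 0 of 10 differed in edgeR's test, against 0.0565% of all genes, and 0 differed with DESeq2. An unadjusted p under 0.05 was seen for 2 of the 10, Pcsk2 (−0.30, adjusted p = 0.631) and Scg2. With the replicate number as a block in all 24 libraries, Pcsk1 was a further gene with a difference between the OE and Scr responses (−0.41, adjusted p = 0.0457). Without the block that difference was −0.41 (adjusted p = 0.117). The block assumes an effect shared by same-numbered libraries of both lines. By the correlation check given with the processing, same-numbered libraries of OE and Scr did not pair.

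The other falls in OE varied between libraries. Pcsk1 was at 1566, 1187, 1027 and 1017 CPM in OE+Cy, Pam at 761, 511, 375 and 361 CPM, and Ptprn at 1144, 887, 600.2 and 680.1 CPM. Replicate 1 stood highest in each, and for each of these genes it alone overlapped the untreated OE libraries. The falls were −0.46 for Pcsk1 (SE 0.13, adjusted p = 0.00537), −0.64 for Pam (SE 0.19, adjusted p = 0.00793) and −0.49 for Ptprn (SE 0.17, adjusted p = 0.0228). Without OE+Cy replicate 1 the called genes were 5 of 10, with Pcsk1 (−0.61), Vgf (−0.66) and Ptprn (−0.68) added. Without OE replicate 1, OE+Cy replicate 3 or OE+Cy replicate 4, Pam was lost (−0.57, −0.53 and −0.52), and 1 gene was called.

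Scg5 moved least of the set under cytokines, with 95% intervals of the log2 difference from −0.19 to 0.17 for Scr, from −0.23 to 0.13 for ZIP and from −0.24 to 0.12 for OE. The ratio of Pcsk2 to Pcsk1 reads with cytokines was 1.74 ± 0.0791 in ZIP+Cy, against 0.748 ± 0.0737 in Scr+Cy and 0.914 ± 0.112 in OE+Cy. Scg2 reads per Chga read were 1.01 ± 0.185 in Scr against 0.590 ± 0.0574 in Scr+Cy. The same ratio in ZIP cells was 0.991 ± 0.133 untreated and 0.671 ± 0.0326 treated, and in OE cells 0.736 ± 0.0642 and 0.487 ± 0.0507.

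**Figure D4:**
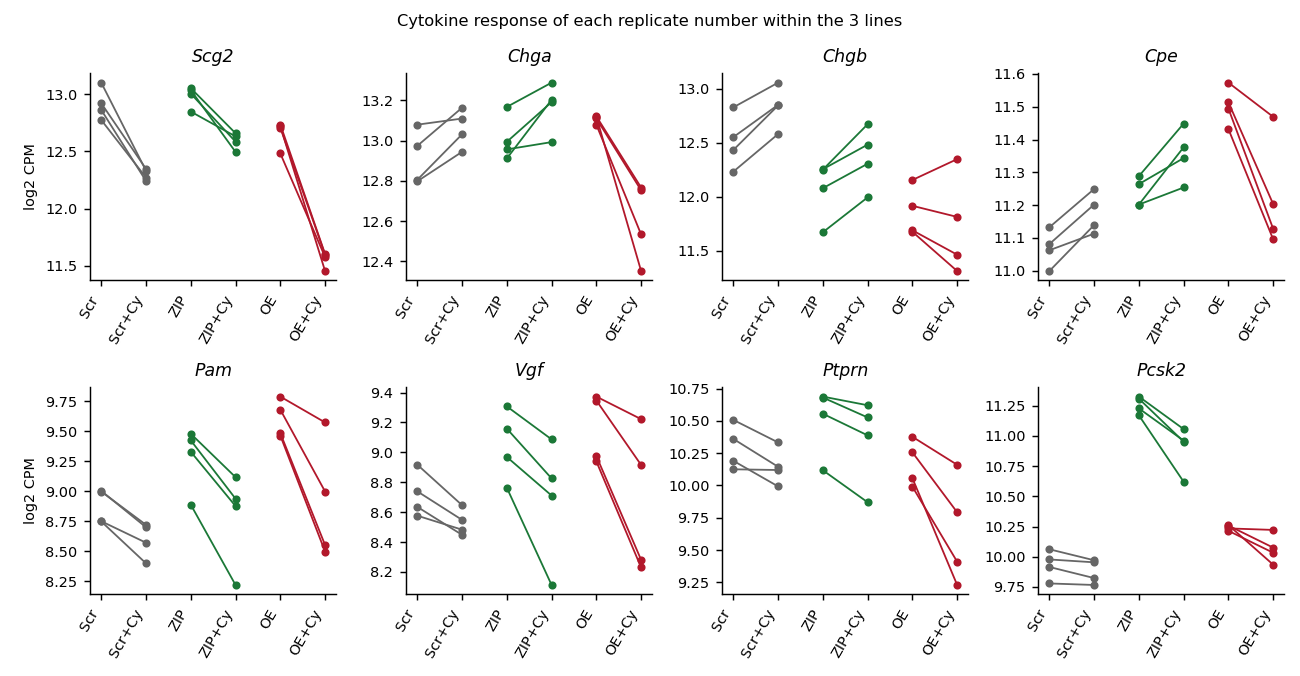
Cytokine response of 8 of the genes, as log2 CPM, with a line from the untreated to the treated library of the same replicate number in Scr (grey), ZIP (green) and OE (red). The axes do not start at 0 and differ between panels. Chga, Chgb and Cpe go up in 4 of 4 pairs in Scr and ZIP, Chga and Cpe go down in 4 of 4 pairs in OE, and Scg2 goes down in all 12 pairs.

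Under cytokines the lines were compared with Scr+Cy. In OE+Cy 2 of 10 genes were called against 28.5% of all genes, and 6 of 10 had an adjusted p under 0.05 against 53.4%. Chgb was the deeper of the called genes. The OE+Cy libraries held 5219, 3601, 2544 and 2825 CPM of it, the Scr+Cy libraries 7397, 8528, 6131 and 7367 CPM, and the ZIP+Cy libraries 5067, 5728, 4083 and 6530 CPM. Every OE+Cy library lay below every Scr+Cy library (−1.05, SE 0.19, 0.482-fold, adjusted p = 5.03e-05). Scg2 was the other (−0.74, SE 0.07, adjusted p = 1.98e-09). Chga (−0.45, adjusted p = 8.13e-05) and Ptprn (−0.46, adjusted p = 0.0262) were also lower, and Scg5 (0.29, adjusted p = 0.00924) and Pcsk2 (0.19, adjusted p = 0.0472) were higher.

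In ZIP+Cy against Scr+Cy, Pcsk2 was the 1 gene of 10 called, against 15.8% of all genes, and 3 of 10 had an adjusted p under 0.05 against 28.1%. All 3 were higher in ZIP+Cy: Pcsk2, Scg2 (0.30, adjusted p = 0.00164) and Cpe (0.18, adjusted p = 0.0396). Replicate numbers paired these groups as well. With the block in all 24 libraries Chgb was lower too (−0.46, adjusted p = 0.0095, against 0.0717 without it). The count was then 4 of 10, against 32.9% of all genes. With the block in the groups compared only it was 5 of 10, against 32.2%. Chgb (−0.46, adjusted p = 1.7e-04) and Pcsk1 (−0.19, adjusted p = 0.0254) were lower in that fit.

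The study also set treated cells against untreated Scr cells, which mixes line and treatment and uses the same Scr libraries again. In OE+Cy 3 of 10 genes were called, all lower, against 34.2% of all genes: Scg2 (−1.36, SE 0.07, adjusted p = 2.03e-14), Chgb (−0.74, SE 0.19, adjusted p = 0.00166) and Ptprn (−0.61, SE 0.17, adjusted p = 0.00348). The call of Ptprn was lost without OE+Cy replicate 3 (−0.47), OE+Cy replicate 4 (−0.51) or Scr replicate 2 (−0.54). In ZIP+Cy 1 of 10 was called against 21.7% of all genes, Pcsk2 at 0.97 (SE 0.08, adjusted p = 4.07e-10).

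Ordered by group mean, most neighbouring groups overlapped. Pcsk2 ran ZIP, ZIP+Cy, OE, OE+Cy, Scr and Scr+Cy, with the first 3 apart from each other and the last 4 overlapping in turn. Scg2 ran ZIP, Scr, OE, ZIP+Cy, Scr+Cy and OE+Cy, with 3 of the 5 neighbouring pairs apart. For Pcsk1 OE alone stood apart from its neighbour, and for Chga OE+Cy alone did. For Cpe, Scg5, Pam, Chgb, Vgf and Ptprn no neighbouring pair was free of overlap. The ratio of the highest to the lowest group mean was 2.69 for Scg2, 2.60 for Pcsk2, 2.07 for Chgb and 2.01 for Pam, and it was between 1.28 and 1.78 for the other 6.

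Within groups, 8 of the genes rose and fell together from library to library. Deviations from the group mean of log2 CPM over the 24 libraries gave Pearson's r between 0.62 and 0.96 (median 0.81) among the 28 pairs of the genes other than Chga and Scg2. Chga correlated with the 8 at 0.28 to 0.66 and Scg2 at −0.12 to 0.26. These are descriptions over libraries in which all genes share 1 depth and 1 RNA sample, and the split of 8 and 2 genes was made after they were seen. Replicate 3 was the lowest of its group in 36 of 48 combinations of gene and group. In OE+Cy replicate 1 all 8 were above their group mean, by 0.42 on average, while in OE+Cy replicates 3 and 4 all 8 were below it, by −0.26 and −0.22, and in ZIP+Cy replicate 3 by −0.36. The replicate block takes out the part of this variation that libraries with the same number share.

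**Figure D5:**
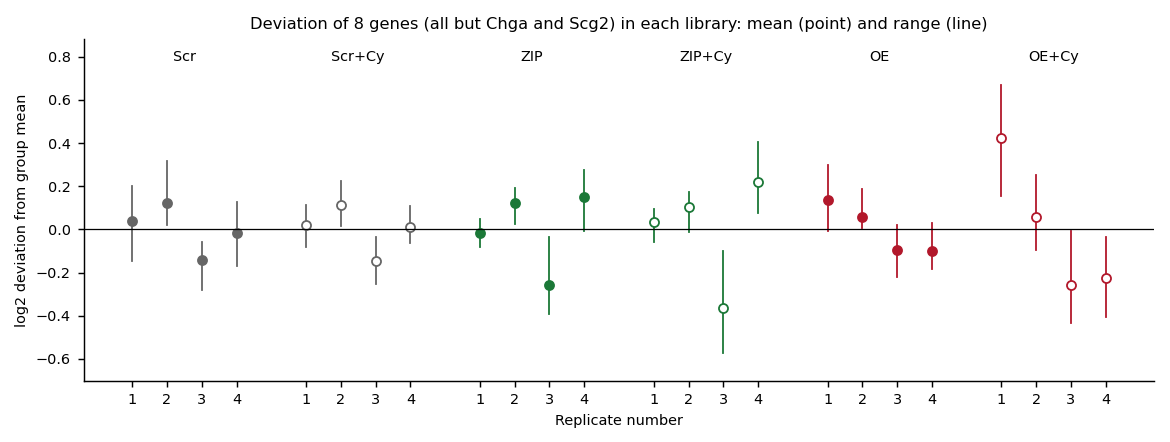
Deviation of 8 genes (all of the set but Chga and Scg2) from their group mean, in log2 CPM, for each of the 24 libraries by replicate number, with the mean as a point and the range over the 8 genes as a line (filled untreated, open cytokine-treated). OE+Cy replicate 1 stands highest at 0.42, and replicate 3 of ZIP+Cy lowest at −0.36.

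Each gene was also set against 12660 other genes for the likeness of its 6 group means, as the root mean square difference of log2 values centred on their mean. The most like were Bdh1 for Pcsk1 (0.02), Amt for Pcsk2 (0.08), Ubxn4 for Cpe (0.03) and Bag5 for Scg5 (0.02). For the granins, Vgf and Ptprn they were Sec11a for Chga (0.04), Elmod2 for Chgb (0.09), Ank for Scg2 (0.09), Mboat2 for Vgf (0.04) and Tnfaip8l1 for Ptprn (0.03). Members of the set were left out of the genes compared, so likeness between members was not searched. The spread of the gene itself around its mean was 0.52 for Pcsk2, 0.48 for Scg2 and 0.38 for Chgb on this scale, and was least for Scg5 (0.13).

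Other genes of the pathway were taken from 2 lists chosen with the members. The first held 15 further processing enzymes and inhibitors, all of them listed, 12 of them averaging at least 1 CPM. In OE, 7 of the 15 were called, 2 higher and 5 lower, against 25.7% of all genes. The median of the 15 was −0.36 against 0 over all genes, opposite in sign to the members' median. Count and median include genes under 1 CPM. Of these, Cpz was called higher (0.402 CPM in OE, 0.107 CPM in Scr) and Pcsk5 lower (0.056 CPM in OE, 0.425 CPM in Scr). Qpct, the glutaminyl cyclase that forms pyroglutamate at peptide ends, averaged 1.16 ± 0.347 CPM in OE, against 18.1 ± 1.16 CPM in Scr and 26.1 ± 1.87 CPM in ZIP. Its fall in OE was −3.98 on the log2 scale (SE 0.14, adjusted p = 3.5e-17). Ctsl, the protease cathepsin L, was at 141 CPM in OE against 239.9 CPM in Scr (−0.77, SE 0.08, adjusted p = 2.38e-08).

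The carboxypeptidase M gene (symbol Cpm) was the enzyme of this list that most often rose. Its level was 30.4 ± 2.11 CPM in OE and 29.5 ± 5.03 CPM in ZIP, against 12.6 ± 1.14 CPM in Scr, and with cytokines it was 76.0, 40.1 and 19.4 CPM in the same order. It rose in OE (1.27, adjusted p = 3.17e-07) and ZIP (1.23, adjusted p = 1.48e-06), and with cytokines in Scr (0.62, adjusted p = 0.00736), ZIP (0.44, adjusted p = 0.033, below 1.5-fold) and OE (1.32, adjusted p = 1.08e-07). It was the 1 gene of the 15 called in ZIP (against 14.9% of all genes), in Scr+Cy against Scr (10.6%) and in OE+Cy against OE (21%). In ZIP+Cy against ZIP the 1 called gene of the 15 was Pcsk4, against 12.5% of all genes. Pcsk4 was at 1.24 against 1.90 CPM (−0.61, adjusted p = 0.0683). Pcsk1n, which encodes the proSAAS inhibitor of Pcsk1, averaged 104 ± 9.03 CPM in ZIP and 113 ± 10.5 CPM in OE, against 91.9 ± 23.9 CPM in Scr, with no call in any comparison. Below 1.5-fold, it rose in OE+Cy against Scr+Cy (0.37, SE 0.14, adjusted p = 0.0337).

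The second list held 19 genes of granule cargo and granule formation, insulin among them, all at or above 1 CPM. In OE 9 of 19 were called against 25.7% of all genes, 8 higher and 1 lower (median 0.42), and in ZIP 6 of 19 against 14.9%, all higher (median 0.27). Slc30a8, the zinc transporter of the insulin granule, averaged 139.9 ± 28.0 CPM in ZIP and 382 ± 22.9 CPM in OE, against 21.9 ± 9.23 CPM in Scr (2.67, adjusted p = 7.53e-09, and 4.12, adjusted p = 2.34e-12). Ins1 averaged 1305 ± 103 CPM in ZIP and 7673 ± 809 CPM in OE, against 674 ± 124 CPM in Scr (0.95, adjusted p = 7.25e-06, and 3.51, adjusted p = 1.76e-15). Iapp, the amylin gene, rose in OE by 1.58 (SE 0.07, adjusted p = 9.42e-15), and Scg3, the granin that binds Chga to granule membranes, rose in ZIP by 1.03 (SE 0.10, adjusted p = 2.74e-08).

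Insulin 2 was read beside the enzymes that process it. Ins2 averaged 14964 ± 724 CPM in ZIP and 18879 ± 938 CPM in OE, against 10933 ± 2044 CPM in Scr. It rose in ZIP by 0.45 (SE 0.11, adjusted p = 0.00263) and in OE by 0.79 (SE 0.11, adjusted p = 1.76e-06), so that substrate and Pcsk2 were both higher in ZIP, and substrate, both convertases and Cpe in OE. With cytokines Ins2 in OE was at 10819 ± 1977 CPM, a log2 difference of −0.80 (SE 0.11, adjusted p = 1.82e-06). It also fell in ZIP, to 11416 ± 845 CPM (−0.39, SE 0.11, adjusted p = 0.00951), and in Scr+Cy it was at 9266 ± 530 CPM (−0.24, SE 0.11, adjusted p = 0.145). The responses of OE and Scr differed by −0.56 (SE 0.15, adjusted p = 0.0113).

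Under cytokines 7 of the 19 were called in OE against 21% of all genes, all lower (median −0.34). In Scr and in ZIP 1 of 19 was called, against 10.6% and 12.5%, Slc30a8 (−0.93, adjusted p = 0.0124, and −0.87, adjusted p = 0.00615). At an adjusted p under 0.05 and any size the counts were 16 of 19 in OE (15 lower, against 44.6% of all genes) and 7 of 19 in Scr and in ZIP (6 lower in each, against 17.8% and 26.4%). The deepest falls in OE were Npy, a cargo neuropeptide (−1.51, adjusted p = 1.19e-10), Nucb2, which encodes the nesfatin precursor (−1.11, adjusted p = 8.01e-06), and Slc30a8 (−1.05, adjusted p = 5.34e-04). The interaction of OE and Scr passed for 10 of 19, 9 of them lower in OE, against 20% of all genes.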

How the data were processed

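Polyadenylated RNA of 24 libraries (6 groups of 4, KAPA mRNA HyperPrep) was sequenced by the study. The authors aligned reads with STAR (version 2.7.8a in the submitters' processing notes, another version in the paper) to mm10 in Partek Flow, assigned them to RefSeq Transcripts 96 and dropped genes with fewer than 10 reads in total. How reads shared by overlapping genes were split, and whether strand was used, are not given in the sources used here. The authors deposited estimated counts per gene, of which 30.3% of values are not whole, and a second table of normalized signal (median-ratio scaled counts), which was used only as an alternative for levels. Depth ran from 26657792 to 37168232 assigned reads.

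Values were rounded to integers for the tests. All 17696 genes and 24 libraries were fitted as 6 group means with edgeR 4.0.16 (TMM, glmQLFit, glmQLFTest, R 4.3.3), and p-values were Benjamini-Hochberg adjusted over all genes. Calls needed a 1.5-fold difference or more with p under 0.05, as in the study, and interactions an adjusted p under 0.05. The fit was tested on simulated data. Levels are CPM after TMM scaling. For the promoter and seed searches, RefSeq sequence (GRCm38.p6) and GENCODE M21 3′ UTRs were used. Genes most like a member are the 1 with the smallest root mean square difference of centred group means. The genes followed and the lists were chosen with earlier results of these data known. From the 2 pathway lists, up to 3 called genes with the largest change were named per comparison in the untreated and cytokine comparisons, plus Pcsk1n, Ins1, Ins2 and Irf1.

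Replicate numbers come from the labels, where same-numbered libraries of all 6 groups also share a prefix. What the number and the prefix mark is not stated, so pairing was decided from the data. Over 14535 genes, every same-numbered pair of libraries had deviations correlated above 0.1 in Scr+Cy against Scr (0.235 to 0.602), ZIP+Cy against ZIP (0.159 to 0.281), OE+Cy against OE (0.115 to 0.364) and ZIP+Cy against Scr+Cy (0.13 to 0.247), and these were treated as paired. In the other 5 comparisons they were not. The alternatives were DESeq2 1.42.0, DESeq2's size factors in edgeR, filterByExpr, a fit of the groups compared only, the replicate block, the adjusted p with the fold limit, leaving out each library in turn, and, added after the data were seen, the block in the groups compared only. Some results on other genes are not reported here.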

Additional observations from a re-analysis of the deposited data

Results flagged for a closer look

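A single library stood far from the other 3 of its group for 2 of the 60 combinations of gene and group that were tested, where chance gives about 1 in 20. Pcsk1 in ZIP+Cy replicate 3 was at 858.47 CPM, with the other libraries between 1173 and 1207 CPM, and this library was also the lowest of its group for the 8 genes that varied together. Scg2 in OE replicate 1 was at 5719.4 CPM, with the others between 6691 and 6814 CPM.

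The cytokine response differed between OE and Scr cells for 3 of the 10 genes by the interaction test in edgeR. The difference of the log2 responses was −0.6413 for Chga (adjusted p = 5.11e-04), −0.4846 for Scg2 (adjusted p = 8.25e-04) and −0.3798 for Cpe (adjusted p = 0.00456). Chga and Cpe were higher with cytokines in 4 of 4 pairs of Scr libraries and lower in 4 of 4 pairs of OE libraries, while Scg2 was lower in both lines. Line, clone and vector cannot be told apart in these differences, and summed duct and acinar markers were between 86.2 and 193 CPM in OE+Cy against at most 6.87 CPM in Scr+Cy, whose part was not tested.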

How the results depend on the processing

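Of 1700 recomputed log2 fold changes of the 10 genes, 1682 kept their side of the call, 10 became called and 8 lost the call. No called value changed sign. Uncalled values changed sign 71 times, none larger than 0.21. The 50 levels relative to Scr moved by at most 1.23% with the authors' normalized values.

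Leaving out 1 library at a time gave 1 to 2 called genes in OE against Scr (1 without Scr replicate 2, which lost Chgb), 0 to 1 in Scr+Cy against Scr (0 without Scr replicate 4, which lost Scg2), 0 to 1 in ZIP+Cy against ZIP (1, Pam, without ZIP replicate 3), 1 to 5 in OE+Cy against OE (5 without OE+Cy replicate 1; 1 without OE replicate 1, OE+Cy replicate 3 or OE+Cy replicate 4, which lost Pam) and 3 to 6 in the interaction of OE and Scr (6 without OE+Cy replicate 1, adding Pcsk1 at −0.57, Pam at −0.63 and Chgb at −0.64). Genes at an adjusted p under 0.05 in ZIP against Scr numbered 1 to 2 (2, adding Pam, without ZIP replicate 3).

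That count in ZIP against Scr was 1 as reported, against 28.3% of all genes. It was 2 with DESeq2, with its size factors or with filterByExpr (each adding Cpe). The share of all genes was not counted in these alternatives. In a fit of the groups compared only the count was 5, against 25.8% of all genes. It was 4 with the replicate block (against 33.6% of all genes) and 5 with the block in the groups compared only (against 30.5%). However, replicate numbers did not pair these libraries by the check. In OE against Scr the count was 7 as reported, against 50.1% of all genes. It was 8 with DESeq2 (Chga added), with its size factors or with filterByExpr (Vgf added), the shares again not counted. In a fit of the groups compared only it was 9 (Chga and Vgf added), against 49.4% of all genes. With the replicate block it was also 9 (the same genes added), against 54.1% in all 24 libraries and 49.8% in the groups compared only. Leaving out 1 library gave 6 to 8, with Pcsk1 lost in 5 of 8 cases. Where replicate numbers paired the libraries, the block in the groups compared only raised the count and also the share of all genes. In Scr+Cy against Scr it gave 7 against 31.1% (1 against 17.8% without it). In ZIP+Cy against ZIP it gave 8 against 36.7% (2 against 26.4% without it). In ZIP+Cy against Scr+Cy it gave 5 against 32.2% (3 against 28.1% without it). The block in all 24 libraries added Pcsk1 to the interaction of OE and Scr (−0.41, adjusted p = 0.0457) and changed no other call at 1.5-fold. Replicate numbers did not pair OE with Scr libraries by the check. Why the counts differ between fits was not tested.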
